A study of Homo sapiens with 4 samples.

Results

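The 10 genes described here are ACTB, ACTG1, PTMA, EEF1A1, EEF2, GAPDH, HSP90AB1, TUBA1B, TUBB and NPM1, whose mRNAs are abundant in most human cells. They were followed through enhanced crosslinking and immunoprecipitation (eCLIP) of ADAR in K562, a human chronic myeloid leukaemia line that the labels call a lymphoblast cell. In eCLIP, ultraviolet light joins a protein to the RNA it touches, the protein is pulled down with an antibody, and the trimmed RNA is sequenced beside an input that had no antibody. An ADAR1 antibody was used for the 2 immunoprecipitated (IP) libraries, each of which has an input library, so that replicates 1 and 2 hold an IP and an input each. All 4 came from untreated K562 cells crosslinked at 254 nm and 400 mJ/cm2, and the labels do not say whether the replicates were separate cultures. Any difference between replicates could be of technical origin.

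The deposited lists give clusters, which are short stretches of piled-up reads, with the log2 fold of IP over input for each. A cluster belonged to a gene when its midpoint lay in the RefSeq GRCh38 span of the gene, on the strand of the gene. By that rule the 10 genes held 385 of 534161 clusters in replicate 1, 140 of 155848 in replicate 2 and 0 of 1717 peaks in the list that combines the replicates. Altogether 15423 genes had a cluster in either replicate. Enriched clusters are those whose log2 fold and −log10 p, both the authors' values, each reached 3. The gene set was selected on the folds in these lists, with the enriched clusters of ACTB and PTMA already known, so counts and folds are a description without tests.

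ADAR1 edits double-stranded RNA by turning adenosine into inosine, and its known substrates are often inverted repeats in introns and untranslated regions. The 10 genes encode cytoskeletal proteins (ACTB, ACTG1, TUBA1B, TUBB), translation elongation factors (EEF1A1, EEF2), a glycolytic enzyme (GAPDH), a chaperone (HSP90AB1) and nuclear proteins (PTMA, NPM1). Such genes are often used as loading or reference genes. The mRNAs of EEF1A1, EEF2 and NPM1 belong to the class that begins with a pyrimidine tract at the 5′ end, through which their translation is controlled.

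The transcript starts shown have a replicate 1 cluster in their first 30 bases, and they place the beginning of the clusters against the start of the mRNA. The sequences are the first 30 bases of a transcript, 5′ to 3′ on the strand of the gene, from RefSeq (GRCh38.p14), with bases inside a replicate 1 cluster in capitals.
PTMA: cccccactggctgctctgaaaagccaTCTT
EEF1A1: cTTTTTCGCAACGGGTTTGCCGCCAGAACA
EEF2: ctcTTCCGCCGTCGTCGCCGCCATCCTCGG
NPM1: ctttccCTGGTGTGATTCCGTCCTGCGCGG
ACTG1: ctcagtcgccgCTGCCAGCTCTCGCACTCT
TUBA1B: agtgcgttacttacctcgacTCTTAGCTTG
TUBB: ctctcagaACCTTCCTGCCGTCGCGTTTGC
The NPM1 sequence is chr5:171387849-171387878, which begins at base 734 of the gene span. The others begin at base 1 of the span. Further RefSeq starts at base 748 of GAPDH, base 1287 of TUBB and base 1 of NPM1 had no cluster over their first 30 bases in either replicate and are not shown. The clusters at the starts shown began between base 2 in EEF1A1 and base 27 in PTMA. Of the first 8 bases, 8 were pyrimidines in NPM1, 7 in EEF1A1, EEF2 and PTMA, 5 in ACTG1 and TUBB, and 4 in TUBA1B. The replicate 1 clusters at these starts had folds between 0.59 in TUBB and 1.80 in PTMA, with 1.00 in EEF1A1, 1.02 in EEF2 and 1.18 in NPM1. None of the clusters at the 7 starts was enriched.

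In replicate 1, 93 of the 385 clusters were enriched (24.2%), beside 1.39% of all clusters in that replicate, without matching for read depth. ACTB and PTMA held 34 each, and the other 8 genes held 25 of 296 (8.45%). Of the 10 genes, 8 had an enriched cluster, beside 25.3% of the 8106 genes with at least 14 clusters. In replicate 2, 4 of the 140 clusters were enriched (2.86%), beside 12.8% of all clusters, and all 4 lay in NPM1. That is 1 gene of 10, beside 69.2% of the 6006 genes with at least 6 clusters. The share of genes with a peak in the combined list was 3.64%, and none of the 10 had one. Depth limits the comparison with all clusters. In replicate 1, 24 IP reads over 1 input read gave a fold of only 2.85 in NPM1. A cluster with fewer IP reads could not be enriched there. Sampled replicate 1 clusters of the whole series had medians of 18 IP reads and 2 input reads, where reads were known. Many of them were therefore too shallow to be enriched.

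**Figure D1:**
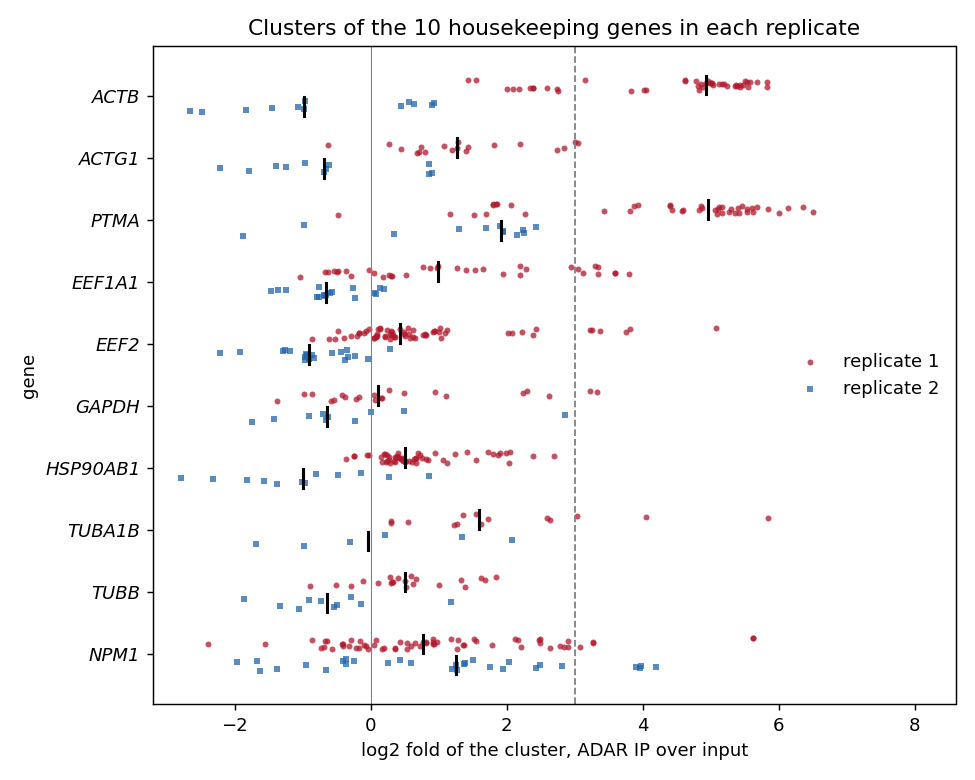
Each point is a cluster, plotted by its log2 fold of IP over input on the x axis, for the gene on the y axis, with replicate 1 above replicate 2; black ticks mark medians and the dashed line the log2 fold of 3. In replicate 1 the ACTB and PTMA points lie mostly beyond 3, with medians of 4.93 and 4.96, while in replicate 2 only NPM1 passes that line.

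The reads behind each cluster decide how far a fold can be trusted, and they could be worked out from the fold and the p together. The library totals that fit were 19967139 reads for the IP and 6001347 for the input of replicate 1, and 3924306 and 7094319 for those of replicate 2. The reads were known for 304 clusters of the 10 genes in replicate 1, with a median of 13.5 input reads, and for 47 in replicate 2, with a median of 12. A sample of clusters of the whole series with known reads had medians of 2 and 3 input reads. In both sets, reads could be known only for clusters with a fold above 0 and a −log10 p below 400. Among such clusters, those of the 10 genes had the higher median of input reads. The intervals below are exact 95% intervals for counting error only. Neighbouring clusters can share reads, and an input of 1 read may stand for 0.

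ACTB, cytoplasmic beta-actin, forms actin filaments. Its gene spans chr7:5527148-5530601 on the minus strand, and 34 of its 45 clusters were enriched in replicate 1 (75.6%), against 0 of 12 in replicate 2. The median log2 fold was 4.93 in replicate 1, at the 99.95th percentile of genes with at least 14 clusters. In replicate 2 it was −0.97, at the 0.899th percentile of genes with at least 6. Percentiles here and below rank genes of unlike depth. The 5 ACTB clusters of replicate 2 with known reads had a median of 101 input reads. The sampled clusters of the whole series had a median of 3 in that replicate. The highest cluster with known reads, at bases 903 to 924 from the start of the gene, had 1140 IP reads and 6 input reads in replicate 1, a log2 fold of 5.84 (interval 4.71 to 7.28). In 19 further clusters the p was at the limit of 400 in the authors' scale, so only the reads in lowest terms are known.

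The ACTB clusters of replicate 1 were not spread over the gene. In replicate 1, 30 consecutive enriched clusters lay between bases 82 and 937 (chr7:5529665-5530520), with folds of 3.15 to 5.84. The 2 clusters before them, from base 43 to 81, had folds of 1.55 and 1.44. From base 938 to 1067 there followed 8 clusters at only 2.01 to 2.74, and then 4 enriched clusters up to base 1227 at 3.83 to 4.83. The low stretch had 932 to 1236 IP reads and 51 to 72 input reads. In the 4 clusters just before it, from base 879 to 937, the IP had 1080 to 1147 reads and the input 6 to 11. The dip therefore came with more input reads at nearly the same IP reads. Exons and introns were not assigned in this or the other genes. Whether a stretch belongs to the spliced mRNA or to an intron was therefore not tested. Beyond base 1227 the gene had 1 cluster in replicate 1, at bases 1837 to 1872, with 515 IP reads and 23 input reads and a fold of 2.75.

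Replicate 2 showed a like order of positions at a far lower level. The 5 ACTB clusters inside the enriched stretches of replicate 1 had folds of 0.45 to 0.94, while the 7 outside had −2.65 to −0.96. The ranges did not overlap. Some of the 7 lay further along the gene, from bases 2002 to 2075 up to bases 3329 to 3393. One of the 7, at bases 998 to 1056, lay in the low stretch of replicate 1 and had a fold of −1.06. At bases 339 to 445 the IP of replicate 2 had 107 reads and the input 101, a fold of 0.94 (interval 0.53 to 1.34). Over the 7 pairs of overlapping clusters, the median fold was 4.86 in replicate 1 and 0.57 in replicate 2.

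PTMA, prothymosin alpha, is a small acidic nuclear protein. Its gene spans chr2:231708525-231713551 on the plus strand, and 34 of its 44 clusters were enriched in replicate 1 (77.3%), against 0 of 12 in replicate 2. The median was 4.96 in replicate 1, at the 99.96th percentile, and 1.92 in replicate 2, at the 52.7th percentile. The 34 clusters followed one another without a break in the list from base 231 to base 2607 (chr2:231708755-231711131), with folds of 3.43 to 6.51. The 5 clusters before them had folds of 1.80 to 2.06.

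The highest PTMA fold, 6.51 at bases 1953 to 2004, rested on 303 IP reads and 1 input read in replicate 1 (interval 4.02 to 11.82). The fold of 6.13 at bases 823 to 948 rested on 932 IP reads and 4 input reads (interval 4.77 to 8.01). In replicate 2, the 10 clusters inside the stretch had folds of 0.34 to 2.44, and the 2 outside had −0.98 and −1.88. At bases 1180 to 1258 the replicate 2 IP had 42 reads and the input 16, a fold of 2.25 (interval 1.39 to 3.18). Inside the stretch, PTMA was above its input in replicate 2 without reaching a log2 fold of 3. The span also holds the annotated LOC124906134 pseudogene, with 1 overlapping cluster in replicate 1, and MIR1244-1, with 0.

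**Figure D2:**
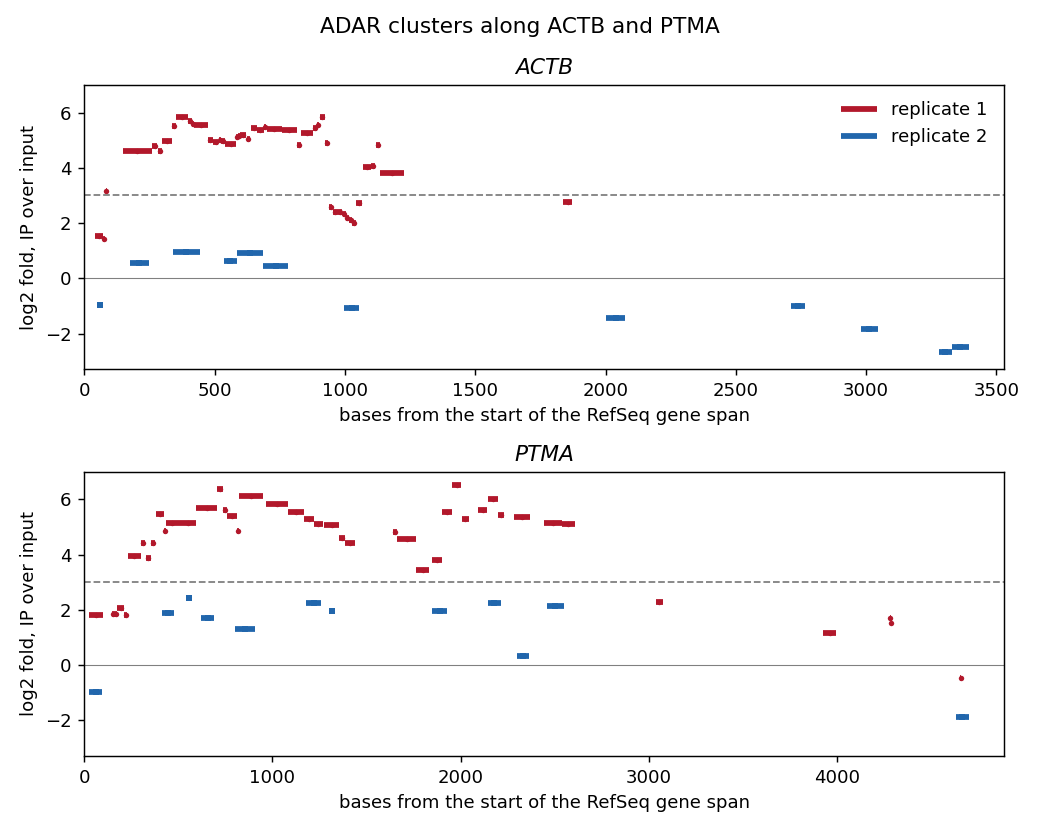
Clusters of ACTB (upper panel) and PTMA (lower panel) by distance in bases from the start of the RefSeq gene span (x axis) and log2 fold of IP over input (y axis), for replicates 1 and 2; the dashed line marks a log2 fold of 3. Enriched clusters lie in the first 1227 bases of ACTB and between bases 231 and 2607 of PTMA, and the replicate 2 clusters inside the enriched runs of replicate 1 (bases 82 to 937 and 1068 to 1227 of ACTB, 231 to 2607 of PTMA) sit above those outside.

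ACTG1, cytoplasmic gamma-actin, is close to ACTB in protein sequence but had 2 enriched clusters of 19 in replicate 1 and 0 of 11 in replicate 2. Its medians were 1.28 and −0.69. The enriched clusters lay between bases 184 and 420 (chr17:81512380-81512616), at folds of 3.00 and 3.05, just past the threshold. The first had 293 IP reads and 11 input reads (interval 2.14 to 4.02), which spans the threshold. The overlapping cluster of replicate 2 had a fold of 0.85.

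EEF1A1 delivers aminoacyl-tRNA to the ribosome. It had 8 enriched clusters of 36 in replicate 1 and 0 of 17 in replicate 2, with medians of 0.99 and −0.65. They fell into 5 stretches between bases 36 and 2181. The highest fold was 3.79, in the stretch from base 2116 to 2181 (chr6:73518852-73518917), with 277 IP reads and 6 input reads. EEF2 moves the ribosome along the mRNA, and it had 6 of 65 and 0 of 21, with medians of 0.44 and −0.91. Its highest fold, 5.09 at bases 221 to 262 (chr19:3985202-3985243), rested on 113 IP reads and 1 input read (interval 2.58 to 10.40). The SNORD37 snoRNA lies inside EEF2, and 1 cluster of each replicate overlapped it.

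GAPDH, the glycolytic dehydrogenase, had 2 enriched clusters of 22 in replicate 1, between bases 237 and 288, with 62 and 67 IP reads over 2 input reads each. It had 0 of 10 in replicate 2, and its medians of 0.11 and −0.65 included the lowest of the 10 genes in replicate 1. HSP90AB1, a constitutive HSP90 chaperone, had 0 enriched clusters of 56 and 0 of 12. Its highest folds were 2.69 in replicate 1, with 86 IP reads and 4 input reads, and 0.85 in replicate 2.

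Of the tubulins, TUBA1B had 3 enriched clusters of 14 in replicate 1 and 0 of 6 in replicate 2, while TUBB had 0 of 21 and 0 of 10. The TUBA1B clusters touched one another between bases 118 and 541 (chr12:49130855-49131278). They had 82, 166 and 191 IP reads over 3, 3 and 1 input reads, and folds of 3.04, 4.06 and 5.84. The highest TUBB fold was 1.85 in replicate 1, from 24 IP reads and 2 input reads.

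NPM1, nucleophosmin, is a nucleolar chaperone for ribosome assembly, and it differed from the other 9 in having enriched clusters in both replicates. There were 4 of 63 in replicate 1 and 4 of 29 in replicate 2, with medians of 0.77 and 1.26. The highest replicate 1 clusters, at bases 414 to 432 (chr5:171387529-171387547), had a fold of 5.62 from 164 IP reads and 1 input read in each of 2 touching clusters. They lay between the 2 RefSeq starts of the gene, at bases 1 and 734. Enrichment met in both replicates at 1 place, ending at base 14063 (chr5:171401154-171401178). Replicate 1 had 56 IP reads and 2 input reads there, a fold of 3.07 (interval 1.15 to 6.15). Replicate 2 had 61 IP reads and 6 input reads, a fold of 4.20 (interval 3.00 to 5.70). This place was not among the peaks of the combined list.

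**Figure D3:**
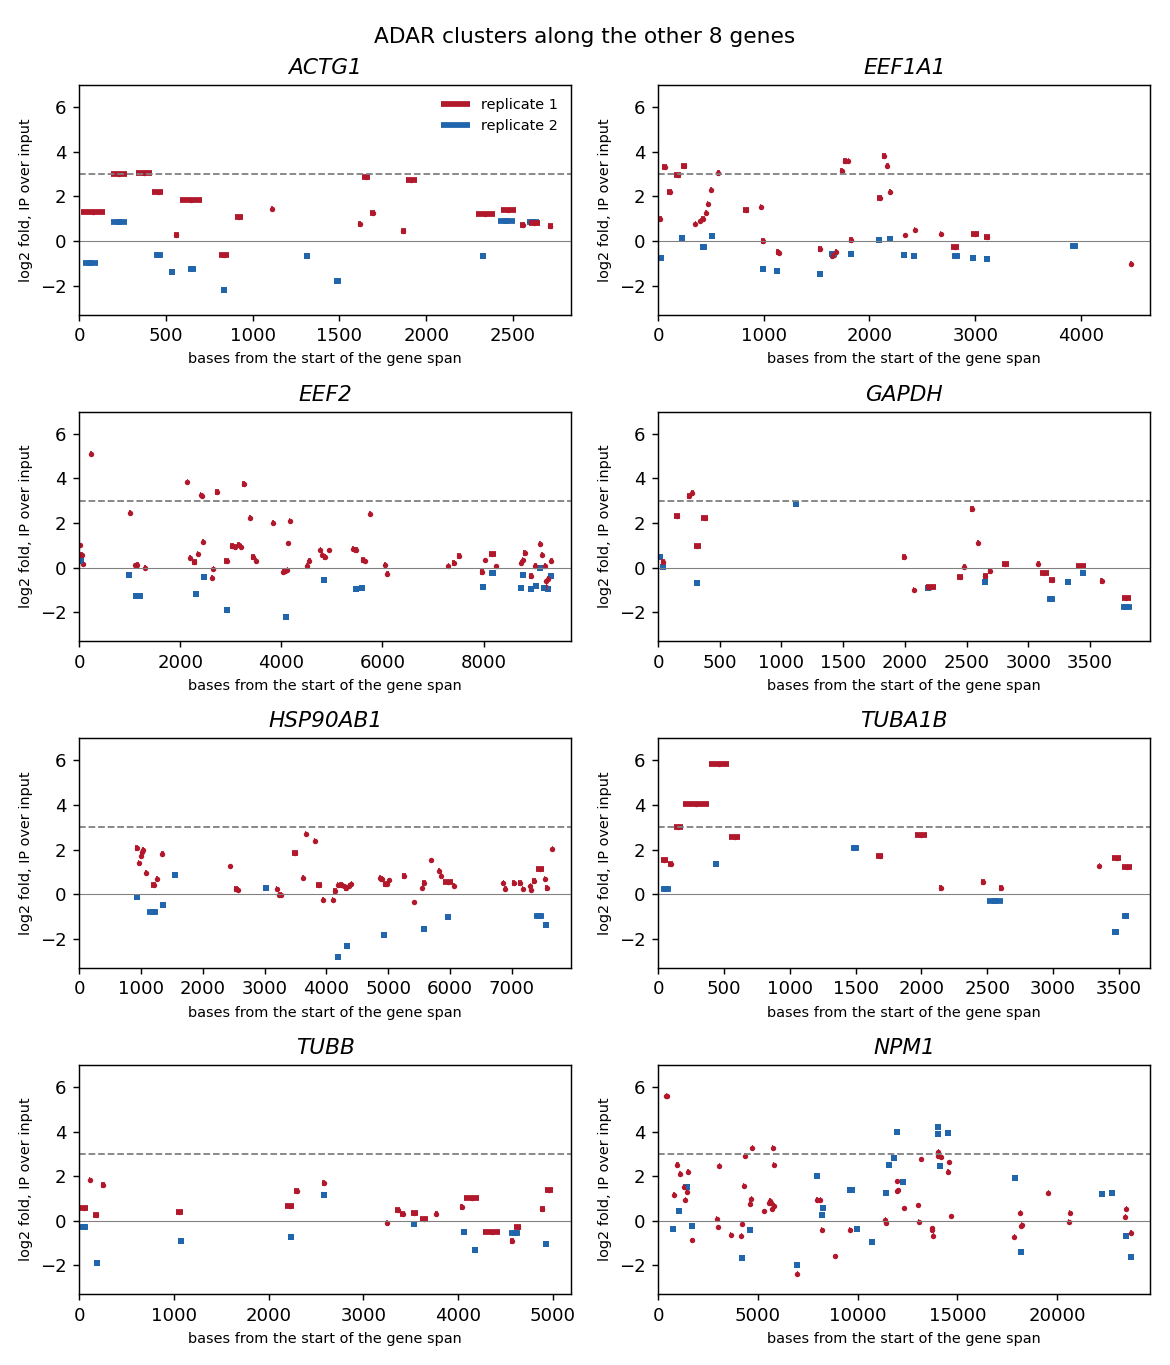
Clusters of the other 8 genes by distance in bases from the start of the RefSeq gene span (x axis) and log2 fold of IP over input (y axis), for replicates 1 and 2; the dashed line marks a log2 fold of 3. Folds above 3 are few, and in replicate 2 they occur in NPM1 between bases 11969 and 14588, at 3.90 to 4.20.

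The replicates were compared directly where clusters overlapped. Of 112 pairs in the 10 genes, 99 had the higher fold in replicate 1 (88.4%), beside 19.3% of all 87894 pairs. The median difference, replicate 1 minus replicate 2, was above 0 in 9 of the 10 genes, and its median over the genes was 1.60. Over the 4846 genes with at least 5 pairs the median was −1.42, and 11.2% were above 0. ACTB had a difference of 4.23, PTMA 3.09, TUBA1B 2.21, HSP90AB1 2.14, ACTG1 1.89, TUBB 1.31, EEF1A1 1.20, EEF2 1.11 and GAPDH 0.30. NPM1 had −0.55, with 7 of its 18 pairs higher in replicate 1.

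Depth moved with this comparison. Among the 5157 pairs of the whole series with at least 10 reads in the denominator of the fold in lowest terms in both replicates, the median difference was −0.18 and 45.4% were higher in replicate 1. Under the same minimum, the median over the 10 genes was 1.75 (68 pairs), beside 1.60 over all of their pairs. Across the pairs of a gene (n = 5 to 20), Pearson's r between the replicates ranged from 0.375 in TUBB (n = 9) and 0.481 in EEF2 (n = 20) to 0.974 in ACTB (n = 7). In PTMA it was 0.851 (n = 12) but Spearman's rho was 0.302, and its 2 pairs outside the enriched stretch had the lowest folds in replicate 1. These pairs come from the same libraries and neighbouring clusters share reads, so r is a description.

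**Figure D4:**
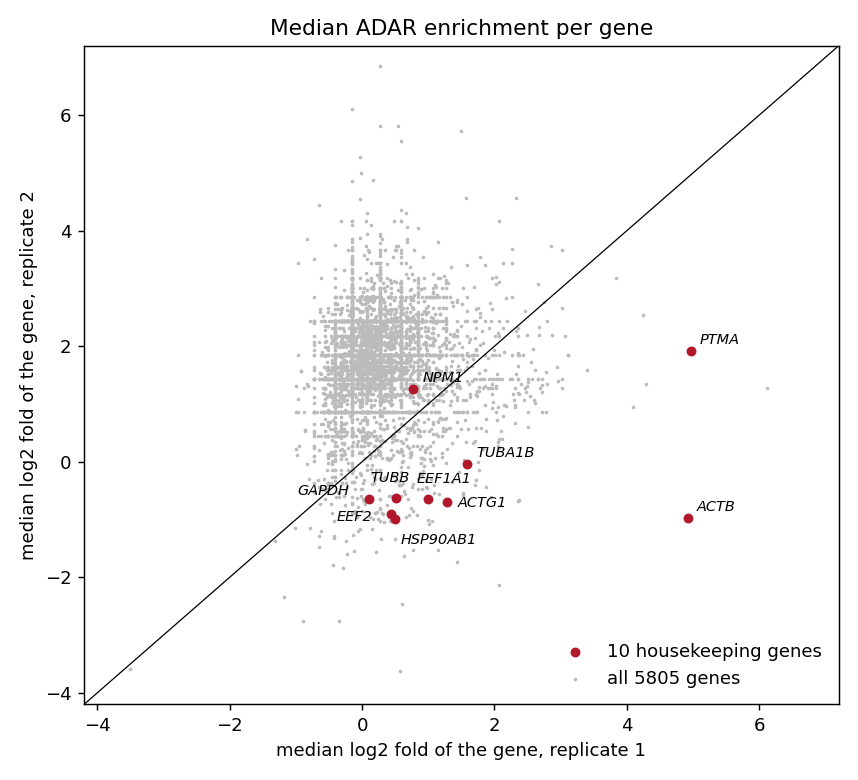
Each point is a gene with at least 14 clusters in replicate 1 and 6 in replicate 2 (5805 genes, with the 10 described genes in red), by its median log2 fold in replicate 1 (x axis) and replicate 2 (y axis); the line marks equal values. All of the 10 but NPM1 lie below the line, ACTB and PTMA at 4.93 and 4.96 on the x axis.

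Among these 5805 genes, 4.96% had an enriched cluster in replicate 1 and none in replicate 2, which held for 7 of the 10. A higher median in replicate 1 was found in 7.92% of them and in 9 of the 10. At least 50% of the replicate 1 clusters were enriched in 11 of them (0.189%), among which were ACTB and PTMA. In replicate 2, 63.6% of the clusters of the 10 genes had a fold below 0, against 9.68% of all clusters, while in replicate 1 the shares were 15.6% and 47.0%. These folds are taken over the input of the same replicate. IP reads alone would not tell fewer copies of an RNA from less ADAR on each copy. The shares of clusters below 0 were not matched for depth. In replicate 2, 1 IP read over 1 input read gives a fold of 0.85, so a cluster with 1 input read cannot lie below 0. Sampled clusters of the whole series with known reads had a median of 3 input reads there, against 12 in the 10 genes.

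Pooled over the 10 genes, 57 of 105 clusters within the first 1000 bases were enriched in replicate 1, against 36 of 280 further on. Single genes did not all follow this count. PTMA had 14 of 19 within 1000 bases and 20 of 25 beyond, and EEF1A1 had 3 of 15 and 5 of 21. In replicate 2 the 4 enriched clusters, all in NPM1, lay from base 11969 on. To set them beside other genes of like length, spans of 2500 to 10000 bases were used, which leaves out NPM1. There 55 of 101 clusters (54.5%) were enriched within 1000 bases and 34 of 221 (15.4%) beyond. In the 7 genes left without ACTB and PTMA the counts were 11 of 46 (23.9%) and 10 of 187 (5.35%). In 367 other protein-coding genes the shares were 6.68% and 2.81%, without matching for read depth.

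In replicate 2 the 9 genes had 0 enriched clusters of 32 within 1000 bases and 0 of 79 beyond, with median folds of 0.07 and −0.79. In 257 other protein-coding genes the median folds were 0.45 and 1.05. The median within 1000 bases was thus the higher in the 9 genes and the lower in the others. By gene, it was higher within 1000 bases in 6 of the 9 and in 42.6% of 197 others.

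Genes of the same pathways were counted beside all genes with a cluster. Of these, 15.1% had an enriched one in replicate 1 and 41.9% in replicate 2. The share was higher among genes with more clusters. It was 25.3% with at least 14 clusters in replicate 1 and 69.2% with at least 6 in replicate 2. Among 12 further actin cytoskeleton genes there were 2 in replicate 1 and 6 in replicate 2. CFL1, cofilin, which severs actin filaments, had 5 of 23 clusters enriched in replicate 1 and 0 of 5 in replicate 2. CAPZB, of the actin capping protein, had 3 of 124 and 4 of 46. Of 8 further tubulins, 2 had an enriched cluster in replicate 1 and 1 in replicate 2. TUBB6 had 1 of 43 clusters and 4 of 16, and TUBA1C had 1 of 25 and 0 of 18.

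Of 17 further translation factors, 8 had an enriched cluster in replicate 1 and 5 in replicate 2. EEF1D, an exchange factor for EEF1A1, had 11 of 40 clusters enriched in replicate 1 and 0 of 17 in replicate 2, and its medians were 2.37 and 1.18. EIF4A1, the mRNA helicase of initiation, had 10 of 31 and 0 of 10, and its medians were 2.07 and −2.14. Of 13 further glycolytic genes, 2 had an enriched cluster in replicate 1 and 4 in replicate 2. PFKL, a phosphofructokinase, had 6 of 52 clusters and 0 of 17, while PGK1, phosphoglycerate kinase, had 1 of 67 and 0 of 25.

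Of 19 further chaperones, 5 had an enriched cluster in each replicate. HSPA9, the mitochondrial HSP70, had 2 of 76 clusters in replicate 1 and 6 of 24 in replicate 2, and CALR, calreticulin, had 2 of 37 and 0 of 13. Of 16 further nucleolar and chromatin chaperones, 7 had one in replicate 1 and 5 in replicate 2. SET, a histone chaperone, had 4 of 31 and 0 of 11. ANP32B, an acidic nuclear protein, had 2 of 52 and 19 of 38, and 6 peaks in the combined list. Of 19 other abundant mRNAs with a cluster, 6 had one in replicate 1 and 4 in replicate 2. YWHAZ, a 14-3-3 protein, had 3 of 43 and 3 of 24, and RACK1, of the small ribosomal subunit, had 3 of 34 and 1 of 13. Beside ANP32B, the genes of these pathway lists with peaks in the combined list were EIF3A and EIF4B (3 each), GPI and DEK (2 each), chosen after their values were seen. In replicate 2, EIF4B had 10 of 42 clusters enriched, GPI 9 of 48, EIF3A 7 of 35 and DEK 5 of 28.

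The genes most like ACTB and PTMA were sought by the distance between pairs of median log2 folds in replicates 1 and 2, among 2367 genes with at least 20 clusters in each. ACTB and PTMA themselves had only 12 clusters each in replicate 2. Nearest to ACTB was MICALL2 at 2.89, followed by CTBP1 at 3.07, BSG at 3.17, ZFPM1 at 3.26 and DAZAP1 at 3.27. PTMA was nearest to LINC01667, a long noncoding RNA, at 0.95, with medians of 4.24 and 2.53. CAPN15 and LOC124900576 followed at 1.85, with the same clusters in overlapping spans, then PTDSS2 at 1.91 and CTBP1 at 2.00. With the minimum lowered to 14 clusters in replicate 1 and 6 in replicate 2, a choice made after seeing the data, EGFL7 was nearest to ACTB, at 2.09. MIR17HG, a microRNA host transcript, was then nearest to PTMA, at 0.05, with 52 of 53 clusters enriched in replicate 1 and 0 of 10 in replicate 2. It had 25 peaks in the combined list, where PTMA had 0.

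Near-identical copies may take reads from these genes. RefSeq names 226 pseudogenes after the 10 genes, among them 65 of GAPDH, 50 each of EEF1A1 and NPM1, 14 of ACTB and 15 of PTMA. For EEF2, HSP90AB1 and TUBA1B the count was 0. Copies that carry other names are not in these counts. The 226 pseudogenes held 117 clusters in replicate 1 and 9 in replicate 2, none of them enriched. Of all clusters, 1.39% were enriched in replicate 1 and 12.8% in replicate 2. With so few clusters, a count of none does not set the pseudogenes apart from other clusters. The sources used here do not say how reads that match several copies were assigned, so values of genes with copies are uncertain to that degree. No cluster lay on the opposite strand in any of the 10 genes. Of marker genes, 11 of 13 erythroid, 1 of 10 hepatocyte and 3 of 8 lymphoid genes had a replicate 1 cluster, enriched or not. The 2 erythroid genes without a cluster in either replicate were HBA1 and HBA2. No share over all annotated genes was taken, so these counts only describe the markers and do not test K562 identity.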

How the data were processed

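The 2 IP and 2 input libraries were made from K562 cells by eCLIP, with a size-selected gel region 75 kDa above the protein, per the labels' protocols. Cutadapt 1.9 and STAR 2.4.0i are named in the submitters' processing notes, which name several genome builds; no peak caller is named in the sources used here. Coordinates were read as GRCh38 and are printed from 1. The log2 folds of IP over input and the −log10 p-values are those the authors deposited for each cluster, the latter limited to 400. No deposited column of per-sample values was left unused (0).

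Clusters were assigned to genes by midpoint and strand, with RefSeq spans. Strand was taken from the RefSeq promoter table, and for ACTB from its clusters. Exons, introns and untranslated regions were not assigned. A transcript start in the RefSeq table is not reported here. Whole reads were recovered as the pair of counts that gave the deposited fold and p, from Yates' chi-square or, with a count below 5, Fisher's exact test; the folds lay on whole-number steps in 99.9% and 99.8% of clusters, and 98.0% of 8638 and 93.0% of 6861 checked clusters had a single pair. Folds below 0 carry a p of 0, so their reads are in lowest terms. The recovery was also run on counts simulated with the same scaling, library totals and tests, so that run does not check those choices. Clusters were paired by mutual best overlap.

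The genes, lists and rules were chosen with earlier results of these data known. Named from each list were the 2 genes outside the 10 with the most enriched clusters in replicate 1, and the 5 nearest to ACTB and to PTMA by Euclidean distance. Intervals are exact Clopper-Pearson intervals at 95%. Alternatives changed the fold and p thresholds, the assignment to genes and the merging of clusters. Python 3.11.15, pandas 2.3.3, numpy 2.4.6, scipy 1.17.1 and matplotlib 3.10.9 were used.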

Additional observations from a re-analysis of the deposited data

How the results depend on the processing

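Of 44 alternatives, 36 left the values within the set limits. Counts could only stay or move, so a reversal was possible only for medians and fold differences, where there were 0. For counts the limit was a set ratio to the main count. It was 1.08 for medians, the spread between the 2 replicates, and 1.36 for fold differences, the spread over the genes. These limits are wide. The replicate 1 median of 0.88 fell to 0.43 with a denominator of at least 10 and still counted as within them. The 93 enriched clusters of replicate 1 became 30 with touching clusters merged, 25 without ACTB and PTMA, and 46 with at least 5 input reads, counted in lowest terms where reads were not recovered, which leaves out ACTB clusters at the p limit whose ratio reduces to 1, 3 or 4 input reads. That was a minimum chosen after seeing the data, as was the omission of ACTB and PTMA. The 4 of replicate 2 became 12 with the log2 threshold at 2 and 1 with it at 4. The 8 genes with an enriched cluster became 5 with it at 4, and leaving out each replicate gave 1 to 8, with 1 without replicate 1. Of the enriched clusters of replicate 1, 57 lay in the first 1000 bases and 30 in the first 500. The direction of each change in these counts follows from how the alternative is built, while its size comes from the data. The combined list held 0 peaks in the 10 genes, so changed thresholds or merging could only give 0. Overlap by at least 1 base and the use of either strand could have differed, and also gave 0. No paired analysis was possible because the values come from no test across samples, and each fold already holds the IP and the input of 1 replicate. Depth limits both replicates. The sampled clusters with known reads all had a fold above 0. Their medians were 18 IP and 2 input reads in replicate 1 and 6 and 3 in replicate 2. PTMA, TUBA1B, EEF2 and NPM1 have enriched replicate 1 clusters with 1 input read.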
